A study of Mus musculus with 12 samples.

Results

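This account covers 10 genes that encode fibronectin and matricellular proteins, *Fn1*, *Postn*, *Sparc*, *Sparcl1*, *Spp1*, *Thbs1*, *Thbs2*, *Thbs3*, *Tnc* and *Tnxb*. They were taken from the bulk RNAseq count table by Ensembl identifier, 10 of the 35727 genes listed there. Fibroblasts came from the pooled hearts of newborn C57BL/6J or *Tcf21*-CreERT2 Rosa26-tdTomato mice. They were enriched for THY1 by magnetic sorting and suspended in a fibroblast medium. In the section that holds the bulk RNAseq, the paper states that a depletion of PECAM1-positive cells was added to this isolation. Its methods give that step as optional. The labels give EGM2, an endothelial growth medium, for growth in both arms. One arm was infected with pMX retroviruses carrying *Sox17* and *Erg*, and the control arm carries the vector name PMX in its labels. RNA was taken at Day 3, Day 7 and 4 weeks from 2 libraries per arm and time, 12 in all, and the question was how the 10 genes differed between *Sox17*-*Erg* and control at each time. RNA was isolated from whole cultures, so fewer cells of a type and less RNA per cell cannot be told apart.

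Fibronectin is a secreted glycoprotein that cells pull into fibrils through integrin receptors, and these fibrils form the scaffold on which collagens and many growth factors are deposited. Matricellular proteins are secreted into the same matrix but carry little of the load themselves, and instead alter adhesion, fibril assembly and growth factor activity. Periostin and tenascin-C are known from the developing, injured and fibrotic heart, where fibroblasts and valve cells secrete them.

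To show the DNA upstream of the members that differed most, RefSeq promoters of GRCm38.p6 were read for the 250 bases before each annotated start. Entries were found for 7 of the 10 members, 10 entries in all, and *Fn1*, *Sparcl1* and *Thbs1* had no entry. Each window was searched on both strands for ACAAT, a core of SOX factor sites, and CCGGAA, a core of ETS factor sites, because *Sox17* is a SOX and *Erg* an ETS factor. The plan was to print the members with the largest called rise and the largest called fall at 4 weeks. The latter, *Sparcl1*, had no entry. The window of *Postn*, the member with the largest called rise, lies at chr3:54360857-54361106 on the plus strand. That of *Tnc*, outside the plan and chosen after its values were seen, lies at chr4:64047016-64047265 on the minus strand. Both are printed from 5′ to 3′ in the direction of the gene, with motif matches in capitals.
Postn: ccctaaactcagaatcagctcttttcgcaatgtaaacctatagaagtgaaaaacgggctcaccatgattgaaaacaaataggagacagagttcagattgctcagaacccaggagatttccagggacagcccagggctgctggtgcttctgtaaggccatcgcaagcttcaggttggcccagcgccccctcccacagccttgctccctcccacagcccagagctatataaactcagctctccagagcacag
Tnc: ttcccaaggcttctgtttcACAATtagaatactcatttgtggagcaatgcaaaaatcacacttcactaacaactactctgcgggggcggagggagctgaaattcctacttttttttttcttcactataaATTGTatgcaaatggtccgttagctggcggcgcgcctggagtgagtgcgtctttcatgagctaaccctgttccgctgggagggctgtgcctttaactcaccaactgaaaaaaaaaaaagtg
The *Postn* window held neither motif, and nor did that of *Tnxb*, the other member called lower at 4 weeks. The *Tnc* window held ACAAT on the gene's strand, with its first base 231 bases before the start, and on the other strand 121 bases before it, and the matches did not overlap. A further *Postn* start had 1 ACAAT match in its window. Across the 10 entries, 3 held ACAAT and 1, of *Spp1*, held CCGGAA, against 27.7% and 12% of all 32851 promoter windows of this length. Of those 3, 2 were overlapping *Tnc* windows that share the match on the other strand. A match gives the letters in the window and not a bound site.

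Library totals ran from 19011635 to 41240449 counts. *Sox17* had 0 to 9 counts in the control libraries and 10019 to 36238 in the *Sox17*-*Erg* libraries, and *Erg* had 2 to 49 and 389 to 1842, as labelled. Levels below are counts scaled to a common library size (counts per 1000000, CPM) after TMM scaling, and a gene was called higher or lower at a Benjamini-Hochberg adjusted p under 0.05 in edgeR's quasi-likelihood test over all 15506 genes tested, which included all 10 members. The labels and methods do not say whether the 2 libraries of a group came from separate cultures, so p-values measure the spread between libraries, which may be technical.

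Tenascin-C was higher in *Sox17*-*Erg* at every time, periostin from Day 7 on and fibronectin at 4 weeks, while tenascin-X was lower from Day 7 on and hevin at 4 weeks. The tenascin-C and periostin calls stood in every alternative fit, while the fibronectin, tenascin-X and hevin calls were each lost in some, as given below. One member of 10 was called higher at Day 3 (*Tnc*), where 7.19% of all genes tested were higher, and 0 were lower in edgeR, where 5.13% of all genes were, or in DESeq2. Of the members with a lower value, 1 (*Tnxb*) had an unadjusted p under 0.05, and it was called lower in edgeR with no filter (adjusted p = 8.9e-05) and with the replicate block within each time point (0.012). At Day 7, 2 were higher (*Tnc* and *Postn*), against 9.48% of all genes, and 1 was lower (*Tnxb*), against 7.93%. At 4 weeks 3 were higher (*Fn1*, *Postn* and *Tnc*), against 11.9% of all genes, and 2 were lower (*Sparcl1* and *Tnxb*), against 11.0%. The median log2 fold change over the 10 members was -0.10, 0.05 and -0.09 at the 3 times, beside 0.01, 0.01 and -0.01 over all genes. With the replicate number as a block within each time point, 1973 genes in place of 1115 were higher and 1619 in place of 795 lower at Day 3, and 2065 in place of 1230 lower at Day 7.

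**Figure D1:**
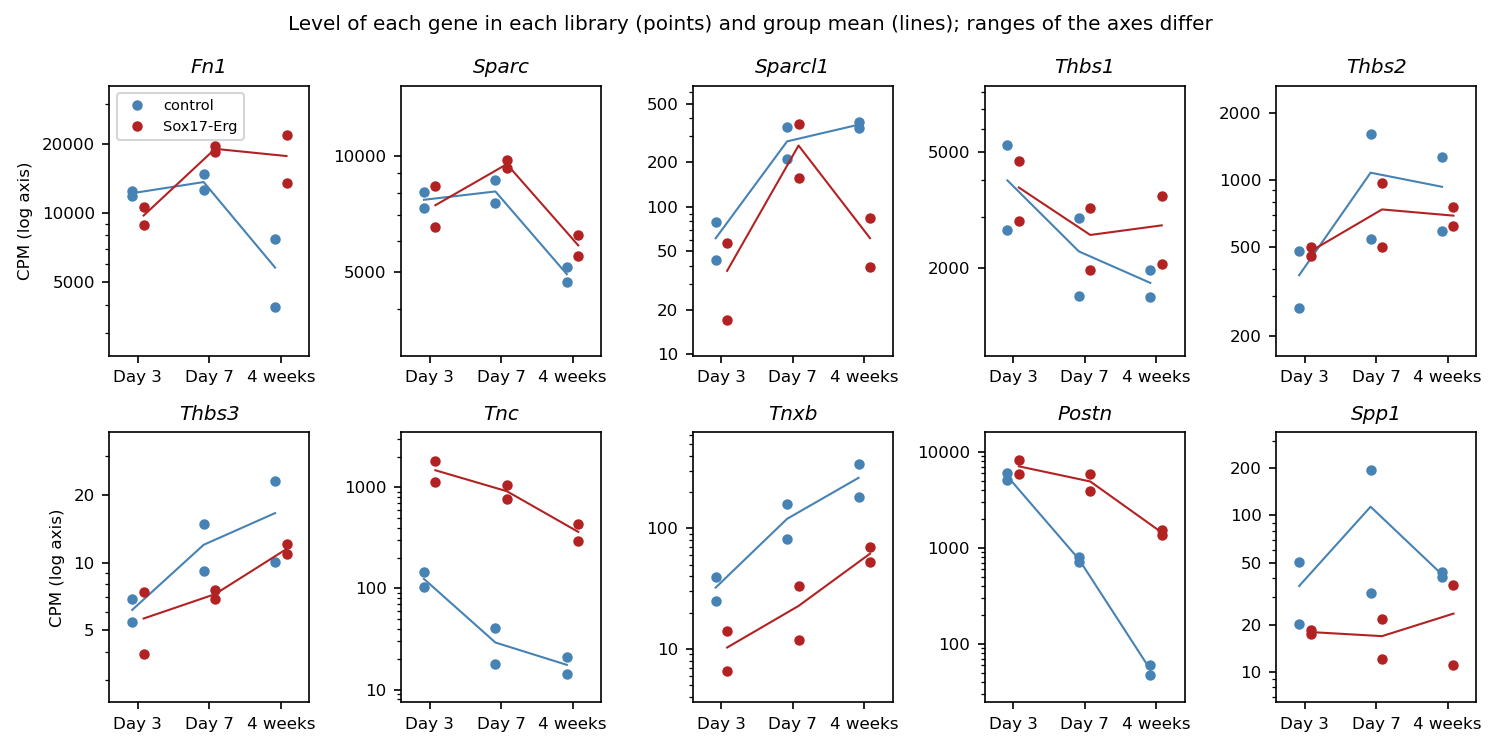
CPM of the 10 members on log axes (ranges differ between panels) in each library (points) and as group means (lines), for control and *Sox17*-*Erg* at Day 3, Day 7 and 4 weeks. The *Sox17*-*Erg* points lie above control for *Tnc* and below it for *Tnxb* at each time (*Tnxb* was not called at Day 3), while the *Postn* lines start together and end at means 26.8-fold apart.

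*Fn1* (ENSMUSG00000026193, chromosome 1, 71585520 to 71653200, minus strand, GRCm38 as are all positions below) encodes fibronectin. In control its level was 12545 and 11921 CPM at Day 3, 12578 and 14788 CPM at Day 7, and 7688 and 3904 CPM at 4 weeks. In *Sox17*-*Erg* it was 8871 and 10687 CPM at Day 3, 19621 and 18571 CPM at Day 7, and 21949.7 and 13579.5 CPM at 4 weeks. Both *Sox17*-*Erg* libraries lay below control at Day 3 and above it at Day 7 and 4 weeks, with no overlap at any of them. The log2 fold change was -0.32 ± 0.35 (SE, n = 2 per arm, adjusted p = 0.58 in edgeR) at Day 3 and 0.48 ± 0.35 (adjusted p = 0.38 in edgeR) at Day 7, neither past the threshold. At 4 weeks *Fn1* was 3.06-fold higher, a log2 fold change of 1.62 ± 0.36 (adjusted p = 0.011 in edgeR). That call was lost without control replicate 2 (log2 1.22, adjusted p = 0.051 in edgeR) and without *Sox17*-*Erg* replicate 1 (log2 1.22, adjusted p = 0.074), the lowest and the highest library at that time, and with 4 weeks fitted alone (log2 1.65, adjusted p = 0.058).

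*Postn* (ENSMUSG00000027750, chromosome 3, 54361109 to 54391037, plus strand) encodes periostin, which binds fibronectin and collagen and takes part in collagen fibril assembly. In control it was at 5119.9 and 5992 CPM at Day 3, 711 and 810.3 CPM at Day 7, and 60.4 and 47.5 CPM at 4 weeks. *Sox17*-*Erg* levels were 5933 and 8196 CPM at Day 3, 3933 and 5887 CPM at Day 7, and 1542 and 1346 CPM at 4 weeks. Periostin mRNA thus overlapped between the arms at Day 3 and was far apart at 4 weeks, when both arms were below their Day 3 levels and control had dropped much further. The log2 fold change was 0.35 ± 0.25 (SE, n = 2 per arm, adjusted p = 0.40 in edgeR) at Day 3, with a 95% interval from -0.23 to 0.92. *Postn* was 6.45-fold higher at Day 7 (log2 2.69 ± 0.27, adjusted p = 0.00039 in edgeR) and 26.8-fold higher at 4 weeks (log2 4.74 ± 0.30, adjusted p = 1.9e-05 in edgeR). Both calls stood in 18 of 18 alternative fits, with log2 values from 2.33 to 2.95 and from 4.59 to 4.93.

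*Tnc* (ENSMUSG00000028364, chromosome 4, 63959785 to 64047015, minus strand) encodes tenascin-C, which binds fibronectin and weakens cell adhesion to it. In control it was at 146 and 103 CPM at Day 3, 40.3 and 18.0 CPM at Day 7, and 14.3 and 20.8 CPM at 4 weeks. In the infected arm it was at 1825 and 1127 CPM at Day 3, 1057 and 775 CPM at Day 7, and 292 and 433 CPM at 4 weeks. Every *Sox17*-*Erg* library, also at 4 weeks, lay above every control library of any time. *Tnc* was 11.9-fold higher at Day 3 (log2 3.57 ± 0.45 SE, n = 2 per arm, adjusted p = 0.0023 in edgeR). No other member was called at that time, although *Tnxb* was in 2 alternative fits. It was 31.4-fold higher at Day 7 (log2 4.97 ± 0.48, adjusted p = 0.00032 in edgeR) and 20.7-fold higher at 4 weeks (log2 4.37 ± 0.47, adjusted p = 0.00028 in edgeR), and each of these calls stood in 18 of 18 alternative fits. The Day 7 value ran from log2 4.51 to 5.64 with 1 library left out, the highest without control replicate 1 (adjusted p = 0.0015 in edgeR). The gene overlaps 8030451A03Rik on the opposite strand, and whether the counting used strand is not given in the sources used here, so reads of these genes may not be told apart.

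*Tnxb* (ENSMUSG00000033327, chromosome 17, 34670535 to 34719815, plus strand) encodes tenascin-X, a tenascin of connective tissue that associates with collagen fibrils. In control it was at 24.8 and 39.7 CPM at Day 3, 81.1 and 159 CPM at Day 7, and 341 and 184 CPM at 4 weeks. With *Sox17*-*Erg* it was at 6.58 and 14.0 CPM at Day 3, 11.9 and 33.5 CPM at Day 7, and 53.0 and 70.3 CPM at 4 weeks. Tenascin-X mRNA lay below control without overlap at all 3 times, opposite in direction to tenascin-C. The log2 fold change was -1.64 ± 0.58 (SE, n = 2 per arm, adjusted p = 0.095 in edgeR) at Day 3, and -1.70 with adjusted p = 0.012 with the replicate block within each time point. *Tnxb* was 5.31-fold lower at Day 7 (log2 -2.41 ± 0.58, adjusted p = 0.021 in edgeR) and 4.26-fold lower at 4 weeks (log2 -2.09 ± 0.56, adjusted p = 0.027 in edgeR). The Day 7 call was lost with Day 7 fitted alone (log2 -2.42, adjusted p = 0.074 in edgeR), without control replicate 2 (log2 -1.85, 0.11) and without *Sox17*-*Erg* replicate 1 (log2 -1.84, 0.14), and the 4 week call without control replicate 1 (log2 -1.58, adjusted p = 0.15) or either *Sox17*-*Erg* replicate (log2 -1.91 and -2.34, adjusted p = 0.16 and 0.082). Without *Sox17*-*Erg* replicate 2 the Day 7 value was -3.37 (adjusted p = 0.012 in edgeR). *Tnxb* overlaps 2 genes on the opposite strand, the snRNA Gm24389 and the pseudogene Cyp21a2-ps.

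*Sparc* (ENSMUSG00000018593, chromosome 11, 55394500 to 55423183, minus strand) encodes a collagen-binding glycoprotein also called osteonectin. In control it was at 7307 and 8054 CPM at Day 3, 7522 and 8625 CPM at Day 7, and 5146 and 4697 CPM at 4 weeks. The *Sox17*-*Erg* libraries held 6531 and 8339 CPM at Day 3, 9263 and 9750.1 CPM at Day 7, and 6218 and 5478 CPM at 4 weeks. *Sparc* was the member whose level differed least between the arms at 4 weeks, although the libraries did not overlap at Day 7 or 4 weeks. Its log2 fold change was -0.05 ± 0.20 (SE, n = 2 per arm, adjusted p = 0.90 in edgeR) at Day 3, 0.24 ± 0.20 (0.46) by Day 7, and 0.25 ± 0.20 (0.43) by 4 weeks. Its 95% interval at 4 weeks ran from -0.21 to 0.71 on the log2 scale.

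*Sparcl1* (ENSMUSG00000029309, chromosome 5, 104079111 to 104113733, minus strand) encodes hevin, a secreted relative of SPARC that shares its collagen-binding region. In control it was at 43.8 and 78.6 CPM at Day 3, 209.5 and 345 CPM at Day 7, and 344 and 376 CPM at 4 weeks. Under *Sox17*-*Erg* it was at 17.1 and 56.5 CPM at Day 3, 158 and 362 CPM at Day 7, and 38.8 and 83.8 CPM at 4 weeks. The arms overlapped at Day 3 and Day 7 and separated at 4 weeks, where both *Sox17*-*Erg* libraries were below their Day 7 levels and the control libraries were not below the lower of theirs. The log2 fold change was -0.73 ± 0.61 (SE, n = 2 per arm, adjusted p = 0.46 in edgeR) at Day 3 and -0.09 ± 0.60 (0.94) at Day 7. At 4 weeks *Sparcl1* was 5.87-fold lower (log2 -2.55 ± 0.64, adjusted p = 0.019 in edgeR). That call was lost without control replicate 1 (log2 -2.62, adjusted p = 0.056 in edgeR), without control replicate 2 (log2 -2.48, adjusted p = 0.057) and without *Sox17*-*Erg* replicate 1 (log2 -2.11, adjusted p = 0.14), and the value was -3.24 (adjusted p = 0.036) without *Sox17*-*Erg* replicate 2.

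The thrombospondins are secreted glycoproteins that bind calcium, and thrombospondins 1 and 2 inhibit vessel growth through the receptor CD36. None of the 3 members passed the threshold at any time. *Thbs1* (ENSMUSG00000040152, chromosome 2, 118111876 to 118127133, plus strand) was at 5286 and 2716 CPM in control at Day 3, 2966 and 1606 CPM at Day 7, and 1598 and 1970.2 CPM at 4 weeks. In the infected arm it was at 4654 and 2909 CPM at Day 3, 3231 and 1974 CPM at Day 7, and 3537 and 2077 CPM at 4 weeks. The arms overlapped at Day 3 and Day 7, and at 4 weeks both *Sox17*-*Erg* libraries lay above control. The log2 fold change at 4 weeks was 0.65 ± 0.45 (SE, n = 2 per arm, adjusted p = 0.34 in edgeR), with a 95% interval from -0.36 to 1.67.

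*Thbs2* (ENSMUSG00000023885, chromosome 17, 14665500 to 14694235, minus strand) was at 266 and 482 CPM in control at Day 3, 546 and 1616 CPM at Day 7, and 1276 and 591 CPM at 4 weeks. With *Sox17*-*Erg* it was at 457 and 500.4 CPM at Day 3, 502 and 975 CPM at Day 7, and 760.5 and 625 CPM at 4 weeks. The arms overlapped at every time, and the control libraries spread more widely than the *Sox17*-*Erg* libraries. The log2 fold change was 0.36 ± 0.55, -0.55 ± 0.55 and -0.43 ± 0.55 at the 3 times (adjusted p = 0.71, 0.53 and 0.62 in edgeR), and the 95% interval at 4 weeks ran from -1.67 to 0.80.

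*Thbs3* (ENSMUSG00000028047, chromosome 3, 89215180 to 89226837, plus strand) was the least abundant of the 3 thrombospondins, also per kb of exon, at 5.42 and 6.89 CPM in control at Day 3, 9.18 and 14.9 CPM at Day 7, and 23.3 and 10.04 CPM at 4 weeks. The *Sox17*-*Erg* libraries held 3.90 and 7.37 CPM at Day 3, 6.92 and 7.56 CPM at Day 7, and 12.1 and 10.96 CPM at 4 weeks. The *Sox17*-*Erg* libraries lay below control without overlap at Day 7, where the log2 fold change was -0.73 ± 0.42 (SE, n = 2 per arm, adjusted p = 0.26 in edgeR). It was -0.54 ± 0.41 (adjusted p = 0.39 in edgeR) at 4 weeks. *Thbs3* overlaps the protein-coding *Mtx1* on the opposite strand, so its low counts may hold reads of that gene. Of the other members, *Fn1* overlaps *Apol7d*, *Sparcl1* overlaps *Gm26703* and *Thbs1* overlaps *Gm29233* on the opposite strand, and *Spp1* overlaps *Gm42793* on its own strand.

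*Spp1* (ENSMUSG00000029304, chromosome 5, 104435118 to 104441050, plus strand) encodes osteopontin, a secreted phosphoprotein that binds integrins and CD44 and is made by macrophages among other cells. In control it was at 50.5 and 20.4 CPM at Day 3, 195 and 32.0 CPM at Day 7, and 40.4 and 43.6 CPM at 4 weeks. Under *Sox17*-*Erg* it was at 18.6 and 17.5 CPM at Day 3, 21.8 and 12.2 CPM at Day 7, and 11.1 and 36.2 CPM at 4 weeks. Every *Sox17*-*Erg* library lay below the control libraries of its time, but the spread within arms was wide. The log2 fold change was -0.98 ± 0.80 (SE, n = 2 per arm, adjusted p = 0.45 in edgeR) at Day 3, -2.73 ± 0.83 (0.052) on Day 7, and -0.83 ± 0.79 (0.50) by 4 weeks. The Day 7 value passed the threshold with the replicate block within each time point (log2 -2.33, adjusted p = 0.022 in edgeR), with DESeq2 (log2 -2.75, 0.015), with no filter (log2 -2.72, 9.8e-07 in edgeR) and without control replicate 2 (log2 -3.51, 0.016 in edgeR). Without control replicate 1, the library at 195 CPM, it was -0.93 (adjusted p = 0.38 in edgeR). The 8 macrophage markers summed to 276 and 249 CPM in the control libraries at Day 7, whose *Spp1* levels were 195 and 32.0 CPM, and to 101 and 103 CPM in *Sox17*-*Erg*. At 4 weeks they summed to 8.29 and 102 CPM in control, where *Spp1* was at 40.4 and 43.6 CPM, and to 20.8 and 127 CPM in *Sox17*-*Erg*, where it was at 11.1 and 36.2 CPM. None of the 8 was at 0 in a group, 0 passed edgeR's test at any of the 3 times even at an unadjusted p under 0.05 (at Day 7 their median log2 fold change was -1.37), and their part in the *Spp1* values was not tested.

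**Figure D2:**
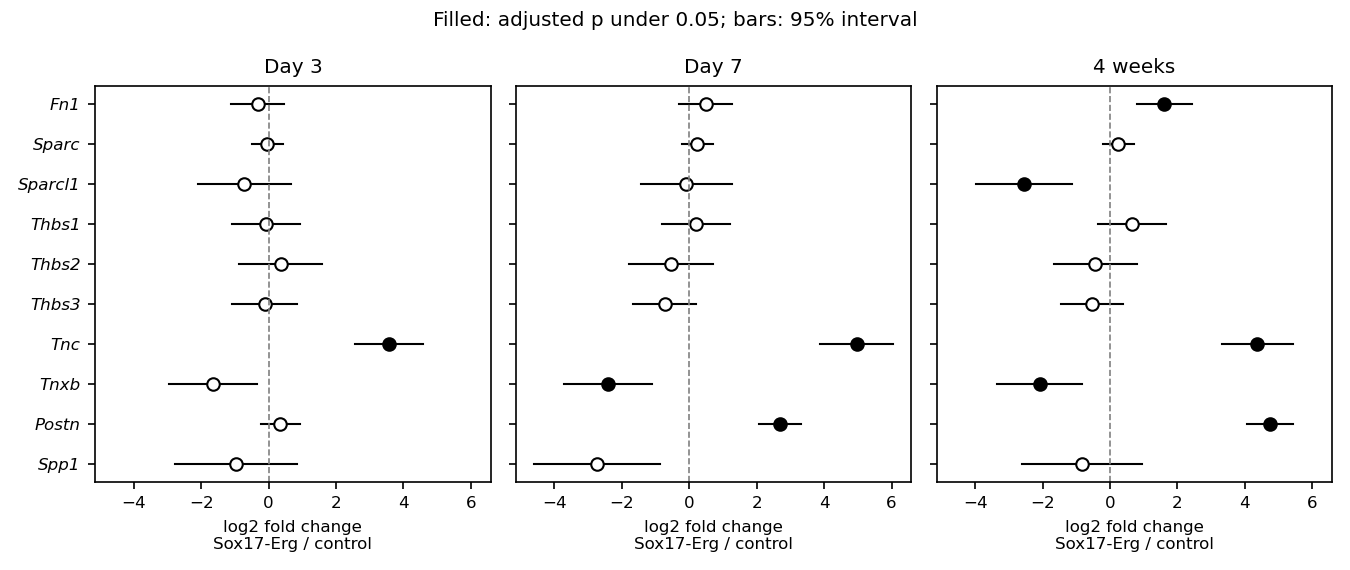
Log2 fold change of *Sox17*-*Erg* over control for each member at Day 3, Day 7 and 4 weeks, with the 95% interval as a bar and filled points where the adjusted p was under 0.05. *Tnc* is filled in all 3 panels, *Postn* and *Tnxb* in the last 2, and *Fn1* and *Sparcl1* at 4 weeks.

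Over time *Postn* and *Tnc* fell and *Tnxb* rose within each arm. In control, 3 of 10 were higher at 4 weeks than at Day 3 (13.9% of all genes tested) and 4 were lower (12.6%). In *Sox17*-*Erg*, 1 was higher (15.1% of all genes) and 2 were lower (15.6%). Control *Postn* was 103-fold lower at 4 weeks (log2 -6.69 ± 0.33 SE, adjusted p = 2.2e-05 in edgeR), and *Sox17*-*Erg* *Postn* 4.89-fold lower (log2 -2.29 ± 0.27, adjusted p = 0.00079). *Tnc* was 7.10-fold lower in control (log2 -2.83 ± 0.44, adjusted p = 0.0024 in edgeR) and 4.07-fold lower in *Sox17*-*Erg* (log2 -2.02 ± 0.42, adjusted p = 0.0078). *Tnxb* was higher at 4 weeks in both arms, 8.15-fold in control (log2 3.03 ± 0.59, adjusted p = 0.0067 in edgeR) and 5.97-fold in *Sox17*-*Erg* (log2 2.58 ± 0.59, adjusted p = 0.012). Each tenascin thus moved in 1 direction over time in both arms, *Tnc* down and *Tnxb* up. The *Tnxb* calls over time were lost without control replicate 1 at Day 3 in control (adjusted p = 0.061 in edgeR) and without *Sox17*-*Erg* replicate 1 at Day 3 in *Sox17*-*Erg* (0.081), and the *Tnc* call in *Sox17*-*Erg* without replicate 1 at Day 3 (log2 -1.58, 0.058) or at 4 weeks (log2 -1.72, 0.072). Without *Sox17*-*Erg* replicate 2 at Day 3 the *Tnxb* value over time in *Sox17*-*Erg* was 3.23 (adjusted p = 0.029 in edgeR).

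The other control changes were smaller. *Sparcl1* was 5.88-fold higher at 4 weeks than at Day 3 in control (adjusted p = 0.018 in edgeR) and *Thbs3* 2.72-fold higher (adjusted p = 0.033). The first call was lost without any 1 of the 4 control libraries compared (adjusted p from 0.05 to 0.13 in edgeR), and the second without either at Day 3 (0.18 and 0.099) or without replicate 1 at 4 weeks (log2 0.71, 0.28). *Fn1* was 2.11-fold lower (log2 -1.08 ± 0.35, adjusted p = 0.049) and *Sparc* 1.56-fold lower (log2 -0.64 ± 0.21, adjusted p = 0.046), and these calls stood in only 6 and 4 of 16 alternative fits, with *Fn1* at -0.66 (adjusted p = 0.21 in edgeR) without control replicate 2 at 4 weeks. In *Sox17*-*Erg* the *Fn1* value was 0.86 ± 0.35 (adjusted p = 0.092 in edgeR) and the *Sparc* value -0.35 ± 0.20 (adjusted p = 0.23), neither past the threshold. That *Fn1* value passed with DESeq2 (log2 0.90, adjusted p = 0.014), with no filter (adjusted p = 0.025 in edgeR) and without control replicate 1 or 2 at 4 weeks (0.046 and 0.039). *Thbs1* missed the threshold in control (log2 -1.17 ± 0.45, adjusted p = 0.088 in edgeR) and passed it with DESeq2 (log2 -1.16, adjusted p = 0.02), with no filter (log2 -1.15, adjusted p = 0.0028 in edgeR) and with the numbers as a single block across the 12 libraries (log2 -1.03, adjusted p = 0.035). *Sparc* did not pass under that block (adjusted p = 0.06 in edgeR). *Thbs2* gained a call in control with no filter (log2 1.34, adjusted p = 0.00097 in edgeR). These comparisons use the same control and *Sox17*-*Erg* libraries as the comparisons between arms.

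Whether the *Sox17*-*Erg* effect itself differed between Day 3 and 4 weeks was tested as an interaction. One member was called, where 2.22% of all genes had a larger and 0.987% a smaller log2 effect at 4 weeks. This was *Postn*, whose log2 effect was 4.40 ± 0.38 larger at 4 weeks (adjusted p = 0.0013 in edgeR), in 17 of 17 alternative fits from 4.22 to 4.65. The *Fn1* effect was 1.94 ± 0.49 larger (adjusted p = 0.076 in edgeR), and passed with DESeq2 (1.97, adjusted p = 0.00026), with no filter (1.93, adjusted p = 0.0013 in edgeR), without control replicate 1 at 4 weeks (2.51, 0.042) and with the replicate block within each time point (1.98, 0.011). For *Sparcl1* the difference was -1.82 ± 0.86 (adjusted p = 0.33 in edgeR), though it passed with no filter (-1.83, adjusted p = 0.0066), and in the comparisons between arms the gene was called only at 4 weeks. For *Tnc* it was 0.80 ± 0.58 (adjusted p = 0.55 in edgeR), with an interval from -0.50 to 2.10.

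Levels of different genes were compared per kb of exon, where *Sparc* had the highest mean in all 6 groups and *Fn1* the next, with *Fn1* overlapping *Postn* in *Sox17*-*Erg* at Day 3. In control at 4 weeks *Sparc* was at 1299 and *Fn1* at 496 CPM per kb (means of 2 libraries) without overlap. In *Sox17*-*Erg* at 4 weeks they were at 1544 and 1520 CPM per kb, and their libraries overlapped. *Postn* went from position 4 in control at Day 3 (638 CPM per kb, overlapping *Thbs1* above it) to position 8 at 4 weeks (6.20 CPM per kb). In *Sox17*-*Erg* it was at position 3 at Day 3 and Day 7 (812 and 564 CPM per kb, overlapping *Thbs1* below it at both times and *Fn1* above it at Day 3) and at position 4 at 4 weeks (166 CPM per kb), clear of both neighbours there. *Tnc* was last of the 10 in control at 4 weeks (2.26 CPM per kb, overlapping *Thbs3*) and at position 6 in *Sox17*-*Erg* (46.7 CPM per kb, overlapping neither neighbour). The full order in control at 4 weeks was *Sparc*, *Fn1*, *Thbs1*, *Thbs2*, *Sparcl1*, *Spp1*, *Tnxb*, *Postn*, *Thbs3* and *Tnc*, where *Thbs2* and *Sparcl1*, *Spp1* and *Tnxb*, and *Thbs3* and *Tnc* overlapped. In *Sox17*-*Erg* it was *Sparc*, *Fn1*, *Thbs1*, *Postn*, *Thbs2*, *Tnc*, *Sparcl1*, *Spp1*, *Tnxb* and *Thbs3*, where *Sparc* and *Fn1*, and *Sparcl1* and *Spp1* overlapped.

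**Figure D3:**
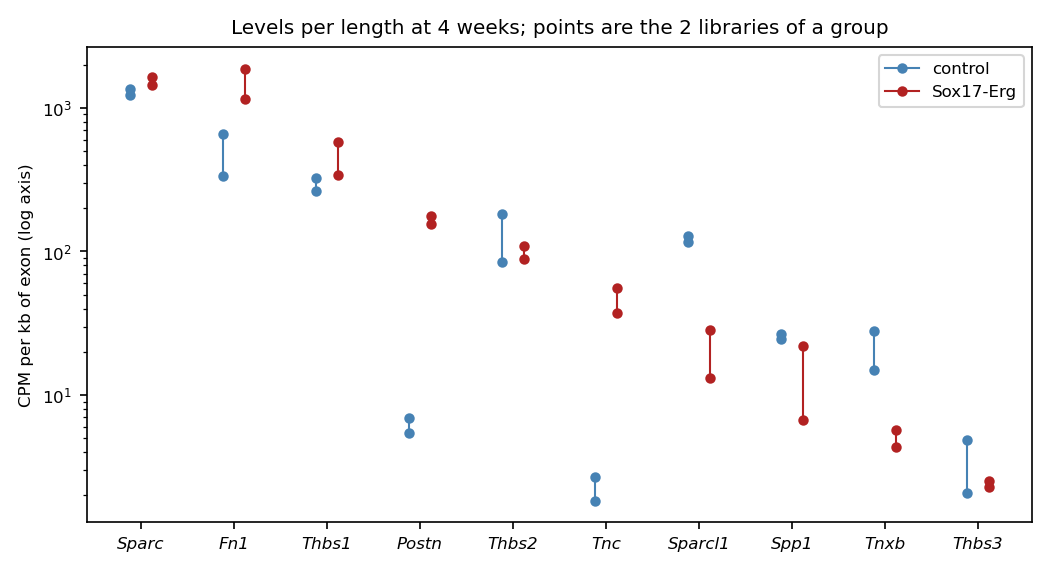
CPM per kb of exon at 4 weeks on a log axis, with the 2 libraries of each group as joined points and the genes in the order of the *Sox17*-*Erg* means. *Sparc* and *Fn1* overlap in *Sox17*-*Erg*, and *Postn* and *Tnc* lie far above their control points.

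Together the 10 members held 2.83% and 3.12% of all counts in the control libraries at Day 3, 2.58% and 2.71% by Day 7, and 1.21% and 1.60% by 4 weeks. With *Sox17*-*Erg* they held 2.94% and 3.03% at Day 3, 3.72% and 3.84% by Day 7, and 2.57% and 3.36% by 4 weeks. *Fn1* took 33.0% and 46.5% of the members' CPM in the control libraries at 4 weeks and 57.2% and 63.8% in the *Sox17*-*Erg* libraries. The share of *Postn* in the members' CPM at 4 weeks was 0.365% to 0.401% in control and 4.48% to 5.67% in *Sox17*-*Erg*.

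Among related matricellular genes (other thrombospondins, tenascins, SPARC family members, *Tgfbi* and the phosphoproteins near *Spp1*), 9 of 13 listed genes could be tested. At Day 3, 2 were higher and 3 lower (7.19% and 5.13% of all genes), at Day 7 again 2 and 3 (9.48% and 7.93%), and at 4 weeks 4 and 3 (11.9% and 11.0%), with a median log2 fold change at 4 weeks of -0.64 against -0.01 for all genes. *Dmp1*, an acidic phosphoprotein of bone and tooth, was at 0.150 and 0.407 CPM in control and 10.9 and 20.3 CPM in *Sox17*-*Erg* at 4 weeks (log2 5.89 ± 0.90, adjusted p = 0.0019 in edgeR). It was also called higher at Day 3 (log2 4.36, adjusted p = 0.019) and Day 7 (log2 5.11, adjusted p = 0.0035). *Dmp1* lies on chromosome 5 between *Sparcl1* and *Spp1* (104202613 to 104214102), and *Ibsp*, between *Dmp1* and *Spp1*, had 0 counts in all 12 libraries. Along this stretch *Sparcl1* was lower, *Dmp1* higher and *Spp1* not called at 4 weeks.

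*Smoc2*, a SPARC-related protein of the matrix, was at 188 and 122 CPM in control and 10.8 and 14.7 CPM in *Sox17*-*Erg* at 4 weeks (log2 -3.60 ± 0.63, adjusted p = 0.0037 in edgeR). *Smoc1*, another SPARC-related gene of this list, went the other way. It was called higher at Day 3, Day 7 and 4 weeks (log2 1.82, 1.99 and 1.75, adjusted p = 0.00042, 9.6e-05 and 6e-05 in edgeR). *Comp*, a thrombospondin of cartilage and tendon, was lower at 4 weeks (log2 -2.86 ± 0.76, adjusted p = 0.025), with control libraries as far apart as 49.8 and 8.58 CPM and *Sox17*-*Erg* libraries at 4.92 and 3.11 CPM. *Tnr*, a tenascin best known from the nervous system, was higher (log2 2.04 ± 0.38, adjusted p = 0.0051) at a low level of 1.91 and 2.33 CPM, against 0.501 and 0.529 CPM in control. Of the tenascins tested, *Tnc* and *Tnr* were thus higher and *Tnxb* lower at 4 weeks.

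The CCN proteins are matricellular proteins that bind integrins and heparan sulfate. Of 6 listed, 5 were tested, and 1, 4 and 2 were higher at Day 3, Day 7 and 4 weeks (7.19%, 9.48% and 11.9% of all genes) with 0 lower at each in edgeR, also at an unadjusted p under 0.05, and the median log2 fold change was 0.65, 1.62 and 1.39. *Ccn3* was at 1.13 and 1.30 CPM in control and 107 and 60.4 CPM in *Sox17*-*Erg* at 4 weeks (log2 6.11 ± 0.52, adjusted p = 8.3e-05 in edgeR). Its effect was 3.88 ± 0.64 larger on the log2 scale at 4 weeks than at Day 3 (adjusted p = 0.015 in edgeR). *Ccn1*, also called CYR61, was at 398 and 226 CPM in control and 1380.4 and 714 CPM in *Sox17*-*Erg* at 4 weeks (log2 1.75 ± 0.39, adjusted p = 0.012).

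Of 14 listed cell surface receptors for these proteins, 13 were tested. At Day 3, 2 were higher and 1 lower, at Day 7, 5 and 2, and at 4 weeks, 5 and 1, with medians of -0.16, 0.23 and 0.19. The shares of all genes called higher were 7.19%, 9.48% and 11.9% in the same order, and those called lower were 5.13%, 7.93% and 11.0%, so 1 lower receptor of 13 is near these shares. *Cd44*, which binds hyaluronan and osteopontin, was at 22.5 and 33.3 CPM in control and 392 and 316 CPM in *Sox17*-*Erg* at 4 weeks (log2 3.67 ± 0.28, adjusted p = 5.2e-05 in edgeR). *Cd36*, a thrombospondin receptor, was at 25.9 and 30.1 CPM in control and 0.602 and 3.15 CPM in *Sox17*-*Erg* (log2 -3.90 ± 0.65, adjusted p = 0.0029). *Itgb3*, the integrin subunit that pairs with alpha V to bind fibronectin, periostin and osteopontin, was at 10.8 and 17.2 CPM in control and 41.7 and 39.2 CPM in *Sox17*-*Erg* (log2 1.54 ± 0.27, adjusted p = 0.0041). *Itga9*, a tenascin-C and osteopontin receptor subunit, was higher by a log2 fold change of 1.48 ± 0.23 (adjusted p = 0.0019 in edgeR). The log2 effect was larger at 4 weeks than at Day 3 for *Cd44* (by 2.59, adjusted p = 0.0083) and *Itgb3* (by 1.84, adjusted p = 0.036), 2 of the 13 receptors tested, where 2.22% of all genes had a larger effect.

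**Figure D4:**
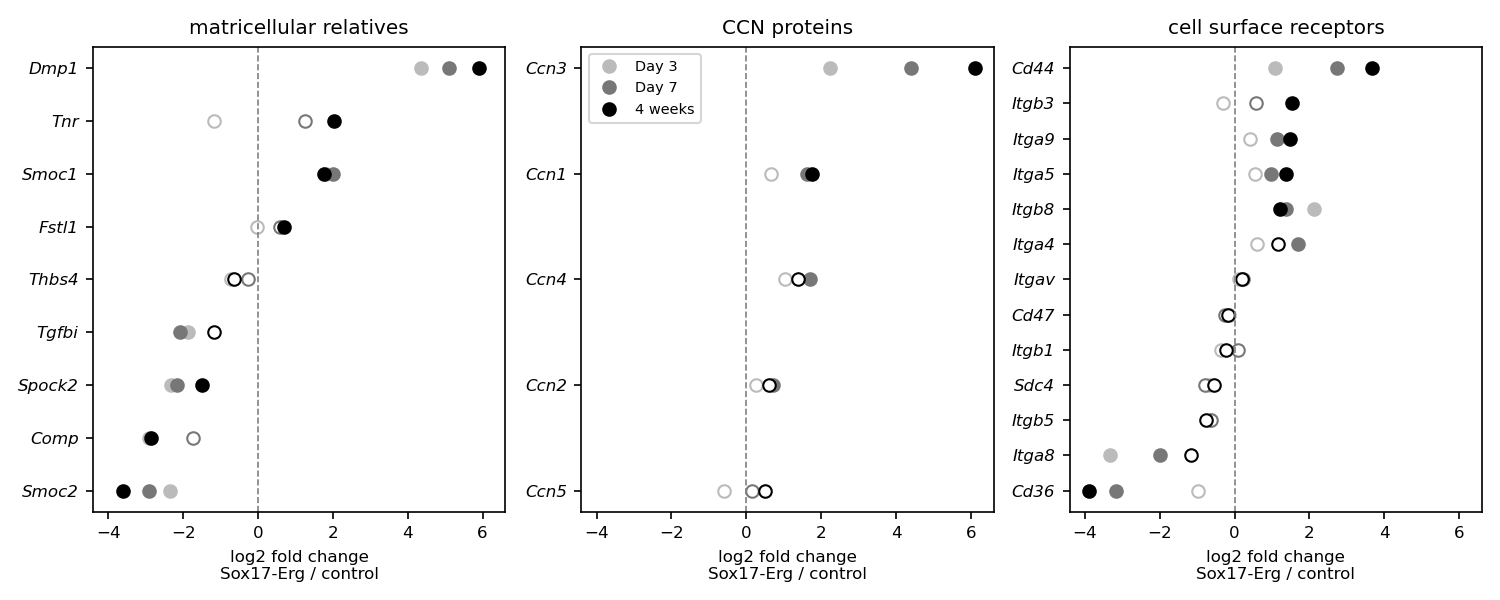
Log2 fold change of *Sox17*-*Erg* over control at Day 3, Day 7 and 4 weeks (grey to black) for the tested matricellular relatives, CCN proteins and receptors, filled where the adjusted p was under 0.05. *Dmp1*, *Ccn3* and *Cd44* lie farthest to the right and *Smoc2* and *Cd36* farthest to the left at 4 weeks.

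Markers of other cell types moved between the arms at the same times. Endothelial markers summed to 16.3 to 56.7 CPM in control and 309 to 704 CPM in *Sox17*-*Erg* over all times. Control replicate 2 held 56.7 and 43.4 CPM of them at Day 3 and Day 7, against 26.8 and 18.8 CPM in replicate 1. At Day 3, Day 7 and 4 weeks, 4, 5 and 6 of 7 tested were called higher, where 7.19%, 9.48% and 11.9% of all genes were. *Cldn5* was at no more than 0.462 CPM in any library. At 4 weeks, where 11.0% of all genes were lower, 6 of 6 mesothelial markers were lower by 4.65-fold to 7.59-fold, with sums of 918 to 1449 CPM in control and 164 to 259 in *Sox17*-*Erg*. So were 7 of 8 cardiomyocyte markers, by 4.13-fold to 12.5-fold, with sums of 1089.55 to 1371 and 685 to 686 CPM, most of them *Tnnt2*, which was not called. Of the fibroblast markers 4 of 8 were lower, by 4.41-fold to 10.5-fold, with sums of 16239.6 to 19853 and 10886 to 11742 CPM that include *Col1a1*, *Col1a2* and *Col3a1*, which were not called. Of 6 smooth muscle markers, 2 were higher and 1 lower at 4 weeks (1045 to 2598 and 3992 to 4161 CPM), where 11.9% and 11.0% of all genes were. At Day 7, where 9.48% of all genes were higher and 7.93% lower, 4 of 6 mesothelial, 3 of 8 cardiomyocyte and 3 of 8 fibroblast markers were lower. Of the smooth muscle markers, 3 of 6 were higher and 1 lower at that time. At Day 3, where 5.13% of all genes were lower, the counts were 1 of 6, 2 of 8 and 1 of 8 lower for the mesothelial, cardiomyocyte and fibroblast markers (5, 2 and 5 at an unadjusted p under 0.05 in edgeR), with median log2 fold changes of -1.84, -0.87 and -1.27 against 0.01 over all genes. At that time 0 of 6 smooth muscle markers were called, with 1 higher and 1 lower at an unadjusted p under 0.05 in edgeR. No marker of these lists was at 0 in both libraries of a group. Their part in the *Fn1*, *Postn*, *Tnc*, *Tnxb* and *Sparcl1* results was not tested.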

How the data were processed

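Bulk RNAseq was analysed for neonatal mouse cardiac fibroblasts with *Sox17*-*Erg* or control retrovirus, 2 libraries in each of 6 groups, assigned from the sample labels. Stranded mRNA libraries (Kapa) were sequenced as paired ends. The authors made FASTQ files with bcl2fastq 2.20.0, trimmed reads of high GC content with BBDuk, and deposited Salmon estimated counts per Ensembl gene, which were whole numbers and not scaled for library size. The submitters' processing notes name mm10. The Salmon version and the annotation are not given in the sources used here. Symbols, positions and exon lengths came from GENCODE M21 (GRCm38), which held 35493 of the 35727 genes, and 25680 genes had a count.

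Counts entered edgeR 4.0.16 in R 4.3.3 (TMM, filterByExpr with a minimum count of 10 and minimum total of 15, 1 mean per group, quasi-likelihood F test, 6 residual degrees of freedom, Benjamini-Hochberg adjustment over 15506 genes, two-sided). Alternatives were DESeq2 1.42.0, its size factors, no filter, single time points, a replicate block and leaving out each library. The 2 libraries of each group differed beyond counting error (chi-square per degree of freedom 27.4 to 70.4), so none was a repeat deposit. Deviations of libraries with equal replicate numbers in the labels correlated by 0.19, 0.30 and 0.17 between the arms at Day 3, Day 7 and 4 weeks, across genes, which are not independent, and a block within each time point was added after the data were seen. The 10 members and all lists were chosen with earlier results of these data known. Companion genes were named as up to 4 called genes per list with the largest log2 fold change at 4 weeks, and *Smoc1* was added beside *Smoc2*. No protein sequences were used here.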

Additional observations from a re-analysis of the deposited data

Results flagged for a closer look

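The difference between the *Sox17*-*Erg* effects at 4 weeks and Day 3 was set apart for *Postn*, by a test of the difference itself. The log2 effect was 4.40 larger at 4 weeks (SE 0.38, n = 2 libraries per group, adjusted p = 0.0013 in edgeR's interaction test over all genes). The effect was 0.35 at Day 3 and 4.74 at 4 weeks, with both *Sox17*-*Erg* libraries above both control libraries at 4 weeks and overlapping them at Day 3. The earlier results from which the members were chosen already held *Postn*, so this is not independent evidence.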

How the results depend on the processing

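Over 310 single-gene values of the members under other fits, 287 kept their direction and side of the threshold, 5 lost and 17 gained a call and 1 reversed. Over 720 values with 1 library left out, 652 did, 40 lost and 6 gained a call and 22 reversed. With a library left out, its group was 1 library assumed to vary like the others. Every comparison was refitted without each of the 12 libraries, also those outside its groups. Leaving those out can alter a value only through the scaling, the filter and the shared spread, so such values are expected to change little. The counts of alternative fits given above include them. *Tnc* at every time and *Postn* at Day 7 and 4 weeks kept their calls between arms throughout.

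Among all genes, DESeq2 gave 1258, no filter 1333 and the replicate block within each time point 1619 lower at Day 3, where this block gave 1973 higher. Day 7 fitted alone gave 609 higher and 479 lower, and the block gave 2065 lower. Among the members, 1 was lower at Day 3 with no filter or with the block (*Tnxb*), and at Day 7 2 were lower with DESeq2, no filter or the block (*Tnxb* and *Spp1*) and 0 with Day 7 fitted alone. From Day 3 to 4 weeks in *Sox17*-*Erg*, 3 were higher with DESeq2 or no filter (*Fn1*, *Thbs3* and *Tnxb*). For the interaction, 2 had a larger effect with DESeq2, no filter or the block (*Postn* and *Fn1*), 1 a smaller effect with no filter (*Sparcl1*), and the *Spp1* value turned to -0.20 with the block. The block changed no other call of a comparison between arms. The cause of these changes was not tested.

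With 1 library left out, the genes higher and lower were 201 to 1104 and 66 to 1001 at Day 3, 623 to 1371 and 297 to 1292 at Day 7, and 1049 to 1885 and 648 to 1710 at 4 weeks. The lowest values came without control replicate 2 (higher) and *Sox17*-*Erg* replicate 1 (lower) at Day 3, and without *Sox17*-*Erg* replicate 1 at Day 7 and 4 weeks. Members lower were 0 to 1 at Day 7 and 0 to 2 at 4 weeks. Over time, 0 to 3 were higher and 2 to 3 lower in control, 0 to 3 higher and 1 to 2 lower in *Sox17*-*Erg*, and 1 to 2 had a larger effect. Values that changed sign, none of them called, ranged over -0.24 to 0.078 for *Sparc*, -0.52 to 0.48 for *Thbs1*, -0.0085 to 0.81 for *Thbs2*, -0.66 to 0.22 for *Thbs3* at Day 3, -0.85 to 0.39 for *Sparcl1*, -0.21 to 0.67 for *Thbs1*, -1.15 to 0.44 for *Thbs2* at Day 7, and -0.87 to 0.23 for *Thbs2*, -1.01 to 0.20 for *Thbs3* at 4 weeks. Over time they ranged over -0.28 to 1.04 for *Spp1* in control, -0.70 to 1.05 for *Spp1*, -0.82 to 0.0061 for *Thbs1* in *Sox17*-*Erg*, and -0.95 to 0.79 for *Spp1*, -0.84 to 0.32 for *Thbs3*, -0.84 to 0.20 for *Tnxb* in the interaction.

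With 2 libraries per group the standard errors of *Spp1*, *Sparcl1*, *Tnxb* and *Thbs2* between arms were 0.55 to 0.83 on the log2 scale. The lowest count of a member in a library was 77, for *Thbs3*. Counts per gene do not separate isoforms, and protein was not measured in these libraries.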
